A study of Mus musculus with 16 samples.

Results

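The region described is the last 300 positions of the mouse mitochondrial reference, MT:16000-16299 in GRCm38 coordinates, the end of the control region that holds the conserved sequence blocks, the heavy-strand origin and the promoters. Every position has 3 possible non-reference bases, so the region has 900 alleles of the 48897 in the whole genome of 16299 positions. All 300 positions were taken by coordinate. The RefSeq annotation of GRCm38.p6 places no gene here: the tRNA gene TrnP ends at 15422, and the tRNA gene TrnF starts at position 1, where the circular molecule joins on. The same annotation gives no positions for the conserved blocks, the origin or the promoters, so no allele is assigned to one of them below. Positions 16099 to 16150 (52 positions, 156 alleles) were set apart because transversions stood there at like levels in both replicates. Measures of the region are over the other 248 positions and 744 alleles unless the stretch is named. Coverage is the exception and was taken over all 300 positions, stretch included.

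Mitochondrial DNA was read in 16 bulk ATAC-seq libraries, in which Tn5 transposase cuts and tags accessible DNA. Cells came from femurs of 3-month-old mice, all homozygous for the D257A change in PolG, and were sorted by flow cytometry into 8 subsets with 2 libraries each, labelled CD24, CD29, CD24_CD29, CD45, CD105, 6C3, Thy and Thy_6C3. CD45 marks blood-lineage cells, and the other names are surface proteins by which skeletal populations are sorted. Mice without the PolG change were not analysed here, so inherited changes, changes made by the mutant polymerase and sequencing errors cannot be told apart within a measured fraction. The labels name neither the gates nor the mice behind a library. The p-values therefore reflect spread among libraries alone, possibly technical. The tables used here hold mitochondrial positions alone, and the sorted identity of a library was not checked.

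PolG is the polymerase that copies mitochondrial DNA, and D257A removes its proofreading activity. The control region is the main noncoding segment of the molecule. Copying of the heavy strand starts there from an RNA primer that is made at the light-strand promoter, and the conserved sequence blocks lie between that promoter and the origin, where primer RNA gives way to DNA. Transcription of both strands also starts in this segment, so its bases carry no codons but regulate both processes.

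The reference sequence of the region is printed to show where its repeat and its runs of single bases lie. It was read from the reference bases in the deposited tables, 5′ to 3′ on the strand of the reference. Capitals mark AAACCCC, a heptamer that occurs in the second and the third conserved sequence block of mammals.
MT:16000-16299: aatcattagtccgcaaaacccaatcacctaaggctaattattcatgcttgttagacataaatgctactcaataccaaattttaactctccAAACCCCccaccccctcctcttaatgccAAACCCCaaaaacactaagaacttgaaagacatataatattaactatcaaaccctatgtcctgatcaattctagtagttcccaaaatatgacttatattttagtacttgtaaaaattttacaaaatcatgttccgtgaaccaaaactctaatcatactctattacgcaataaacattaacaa
AAACCCC was found at 16090-16096 and at 16118-16124 on the printed strand and nowhere on the other strand of the region. Both strands of the genome hold 7 copies, 10.5% of all windows of 300 bases hold at least 1, and 1.10% hold 2 or more. The longest run of a single base, CCCCCC at 16093-16098, overlaps the first copy, and 34.2% of windows hold a run of at least 6. The region outside the stretch is 37.9% A, 31.0% T, 23.4% C and 7.66% G on this strand, against 34.5%, 28.7%, 24.4% and 12.4% in the genome.

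The stretch set apart is printed on its own because its alleles recur in every library. Capitals mark the positions at which a transversion stood at 1% or more in all 16 libraries.
MT:16099-16150: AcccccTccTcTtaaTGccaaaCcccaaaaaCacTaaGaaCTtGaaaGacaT

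Allele names give the reference base first, then the position (from 1 at the start of the reference), then the base found in its place. The fraction of an allele is its count over the coverage there. It was counted in a library when at least 5 counts made up no less than 1% of that coverage. Mean coverage of the region ran from 4899 (CD24_CD29 replicate 2) to 56147 counts per position (CD29 replicate 1), and no position fell under 2391. At these means a count of 0 allows fractions of up to 0.0612% and 0.00534%. Without molecular identifiers on the reads, such limits and all intervals below cover counting error alone. Thy replicate 2 stood apart: 45 of its 58 counted alleles in the region were A>C or T>G, against at most 3 such alleles in any other library. Results that rest on this library are given with and without it.

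Transitions, the A>G, G>A, C>T and T>C changes, the most common kind of mutation in mitochondrial DNA, were scarcer in the region than in the rest of the genome and more frequent than in the other part of the control region (15423 to 15999). The transition load, the mean over positions of the transition fraction, was lowest in CD24 replicate 1 at 0.0694%, had a median of 0.0854% and was highest in 6C3 replicate 1 at 0.127%. In the rest of the genome it ran from 0.128% to 0.210% with a median of 0.132%, and every library was lower in the region than in its own rest. The mean over 16 libraries was 0.0897% ± 0.0173 (SD) in the region, 0.146% ± 0.0244 in the rest and 0.0544% ± 0.0123 in the other part of the control region. The difference of region minus rest was -0.0562 percentage points, and that of region minus the other part of the control region was +0.0353 (exact sign-flip permutation p = 0.0078125 for each, unadjusted, two-sided, n = 8 subset means, the smallest that 8 subsets allow). The second of these comparisons was added after the values were seen. Such a p-value measures how steadily a difference at fixed positions recurred across subsets, which may not be independent. The region was not compared with other windows of its length, so the p-values do not show that it differs from them. The same holds for every test of the region against the rest below.

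**Figure D1:**
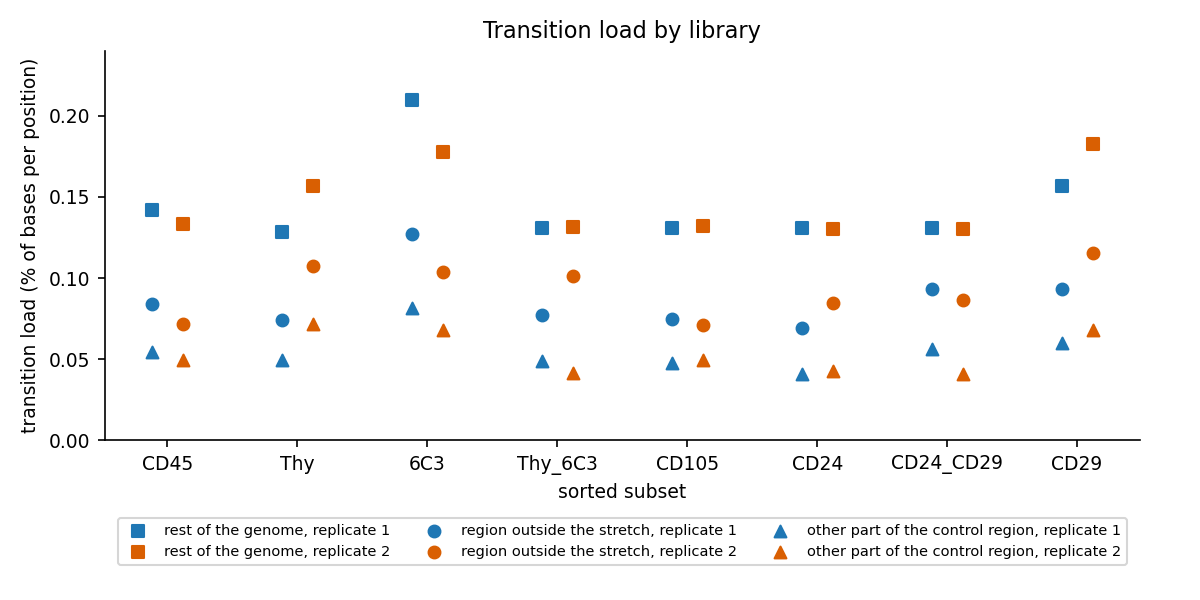
Transition load (percent of bases per position, y axis) in each of the 16 libraries by sorted subset (x axis), for the rest of the genome (squares), the region outside the stretch (circles) and the other part of the control region (triangles), with replicate 1 in blue and replicate 2 in orange. Within every library the circle lies below the square and above the triangle, and 6C3 replicate 1 has the highest circle at 0.127%.

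Both strand-merged kinds of transition took part. C>T with G>A had a mean fraction of 5.12 ± 1.77 per 10000 bases (SD, n = 16) in the region, 11.3 ± 0.831 in the rest and 3.06 ± 0.516 in the other part of the control region. T>C with A>G had 10.7 ± 2.56 in the region, 16.5 ± 3.8 in the rest and 6.96 ± 1.97 in the other part. Each fraction was taken over positions with a reference base of the class. The share of such positions therefore does not enter, but the mix of bases within a class does. Taken singly, C>T had 5.33 in the region against 12.7 in the rest and G>A 4.49 against 8.60. T>C had 10.8 against 19.5 and A>G 10.6 against 14.0. Both classes were lower in the region than in the rest in 16 of 16 libraries (adjusted exact permutation p = 0.00879, over 9 measures). Without the 20 positions on either side of the stretch the means in the region were 5.05 and 10.3 per 10000, still below the rest.

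Transversions, by contrast, were more frequent in the region than in the rest in all 4 strand-merged classes and all 16 libraries. C>A with G>T had 37.4 ± 7.53 against 30.9 ± 7.07 per 10000 bases (SD, n = 16), A>T with T>A 21.0 ± 5.74 against 18.8 ± 5.71, and C>G with G>C 7.38 ± 2.66 against 5.14 ± 2.19. A>C with T>G had 17 ± 16.4 against 13.5 ± 15.6, a spread set by Thy replicate 2, where it was 78.3 against 71.7. In the other 15 libraries this class ran from 11.2 to 15 in the region. Single changes within a merged class differed, given here with no test. T>A had 23.5 against 18.3 per 10000 bases, but A>T had 19.0 against 19.3. C>G had 7.87 against 4.72, but G>C had 5.90 against 5.95. A>C had 20.4 against 14.2 and T>G 12.8 against 12.6, C>A 38.6 against 30.8 and G>T 33.7 against 31.2. The 4 differences of the merged classes passed the test (adjusted exact permutation p = 0.00879 each, n = 8 subset means). They rested in part on the positions next to the stretch. Without 20 positions on either side of it, a choice made after the values were seen, C>G with G>C was 4.59 and A>T with T>A 18 in the region, both then below the rest, while C>A with G>T (34.8) and A>C with T>G (15) stayed above it.

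**Figure D2:**
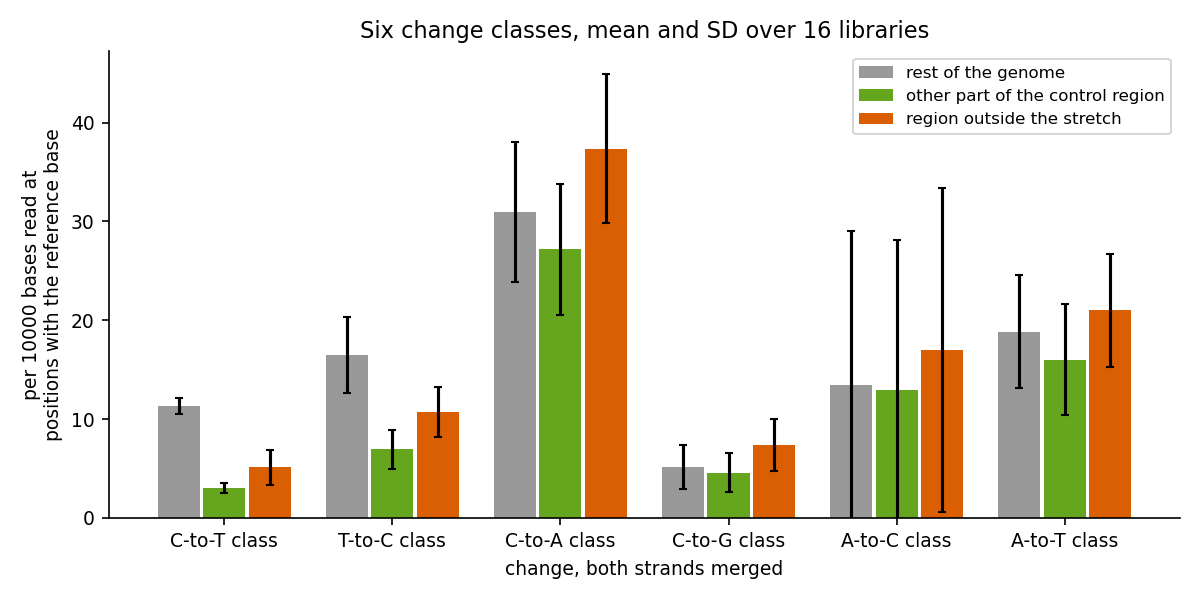
Mean fraction of the 6 strand-merged change classes per 10000 bases read at positions with the reference base (y axis), in the rest of the genome (grey), the other part of the control region (green) and the region outside the stretch (orange), with bars for the SD over 16 libraries, cut at 0 where they reach below it. Orange lies between grey and green in the C-to-T (5.12) and T-to-C (10.7) classes and above both in the 4 transversion classes, where the long bars of the A-to-C class come from Thy replicate 2.

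All non-reference bases together gave a load of 0.491% ± 0.187 of bases per position (SD, n = 16) in the region and 0.483% ± 0.169 in the rest, a difference of +0.00779 within the spread (exact permutation p = 0.219, n = 8 subset means). Without Thy replicate 2 the load of the region ran from 0.395% (CD24 replicate 2) to 0.490% (CD24_CD29 replicate 1), and Thy replicate 2 itself had 1.18%. Without 20 positions on either side of the stretch the load of the region was 0.0470 percentage points below the rest (adjusted exact permutation p = 0.010).

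Of the 744 alleles, 70 were counted in at least 1 library (9.41%, where 7.13% of all alleles of the genome were). Without Thy replicate 2 there were 22 (2.96%, against 2.31% of all). A>C and T>G alleles made up 45 of the 70 (64.3%, against 63.1% of the counted alleles of the genome), and 41 of them were counted in Thy replicate 2 alone. Per library, 58 alleles were counted in Thy replicate 2 and 2 to 9 in the others, with the most in CD24_CD29 (9 and 8). Thy replicate 2 aside, CD24_CD29 libraries had the most in the rest of the genome too, 15.8 and 24.4 per kilobase. Alleles counted per kilobase were 31.3 in the region and 18.1 in the rest (+13.1, higher in 15 of 16 libraries, adjusted exact permutation p = 0.00879), and 17.7 against 9.20 over the 15 libraries without Thy replicate 2. Without 20 positions on either side of the stretch the difference was +1.10 (adjusted exact permutation p = 0.750). For transitions alone, a choice made after the values were seen, the order turned: 3.28 per kilobase in the region and 6.53 in the rest (adjusted exact permutation p = 0.00879).

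Of the 248 transitions, 10 were counted in at least 1 library (4.03%, against 4.97% of all transitions of the genome). Of the 10, 8 were counted in a single library, as were 71.1% of the counted transitions of the genome, and with 10 alleles nothing particular to the region is read from either share. CD24_CD29 replicate 2, the shallowest library, held 5 of them. A16201G stood at 1.79% there (95% exact interval 1.47% to 2.16%) and at 0.185% or less in the other 15, T16235C at 1.24% and at most 0.144%, and G16247A at 1.14% and at most 0.297%. T16293C was at 1.25% in the same library and up to 0.772% elsewhere. Thy_6C3 replicate 2 held G16012A at 1.51% (1.28% to 1.78%; at most 0.265% in any other library) and A16070G at 1.44%. C16270T was counted in both of these libraries, at 1.38% and 1.41%, and ran down to 0.0231% in CD29 replicate 2. In CD24_CD29 replicate 1 A16036G was at 1.15%, where the other 15 libraries had at most 0.0822%. No transition was counted in CD45, Thy, CD105 or CD24 libraries. In the rest of the genome these libraries had 3.38 to 6.00 counted transitions per kilobase, so their absence here is not read as particular to the region. CD24_CD29 libraries had the most in the rest too, with 12.1 and 16.6 per kilobase. The 1.79% of A16201G was the highest transition fraction in the region.

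A16256G had the highest mean of the transitions outside the stretch, and it was present in every library. It ran in replicate 1 from 0.484% (Thy) through a median of 0.629% to 1.18% (6C3), and in replicate 2 from 0.330% (CD24_CD29) through 0.636% to 1.26% (CD29). The ranges of the replicates overlap. Their means were 0.688% ± 0.219 and 0.694% ± 0.318 (SD, n = 8 each), and 6C3 was at 1.18% and 1.02% in its 2 libraries. 6C3 against the mean of the other 7 subsets gave a log2 difference of 0.87 for A16256G, which did not pass (edgeR quasi-likelihood test, Benjamini-Hochberg adjusted p = 0.996). Its sequence, with the changed base in capitals, lies close to the end of the reference.
A16256G: tgttccgtgaAccaaaactct

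Transitions at moderate levels lay mostly past the stretch. A mean of at least 0.2% over 16 libraries was reached by 30 of the 248 transitions (12.1%) and by 23.6% of the transitions in the rest of the genome. Of the 30, 26 lay among the 149 positions after the stretch and 4 among the 99 before it. Of the same 30, 14 lay in the last 50 positions of the reference. By base, 15 were A>G, 13 T>C, 2 C>T and none G>A. The transition load was 0.104% ± 0.0192 after the stretch and 0.0680% ± 0.0195 before it (SD, n = 16), higher after it in 16 of 16 libraries, and 0.0862% ± 0.0198 inside it. In windows of 25 positions the highest transition load was 0.183% ± 0.0429 at 16250-16274, and the lowest was 0.0451% ± 0.0219 at 16025-16049. These segments were compared as a description, with no test.

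**Figure D3:**
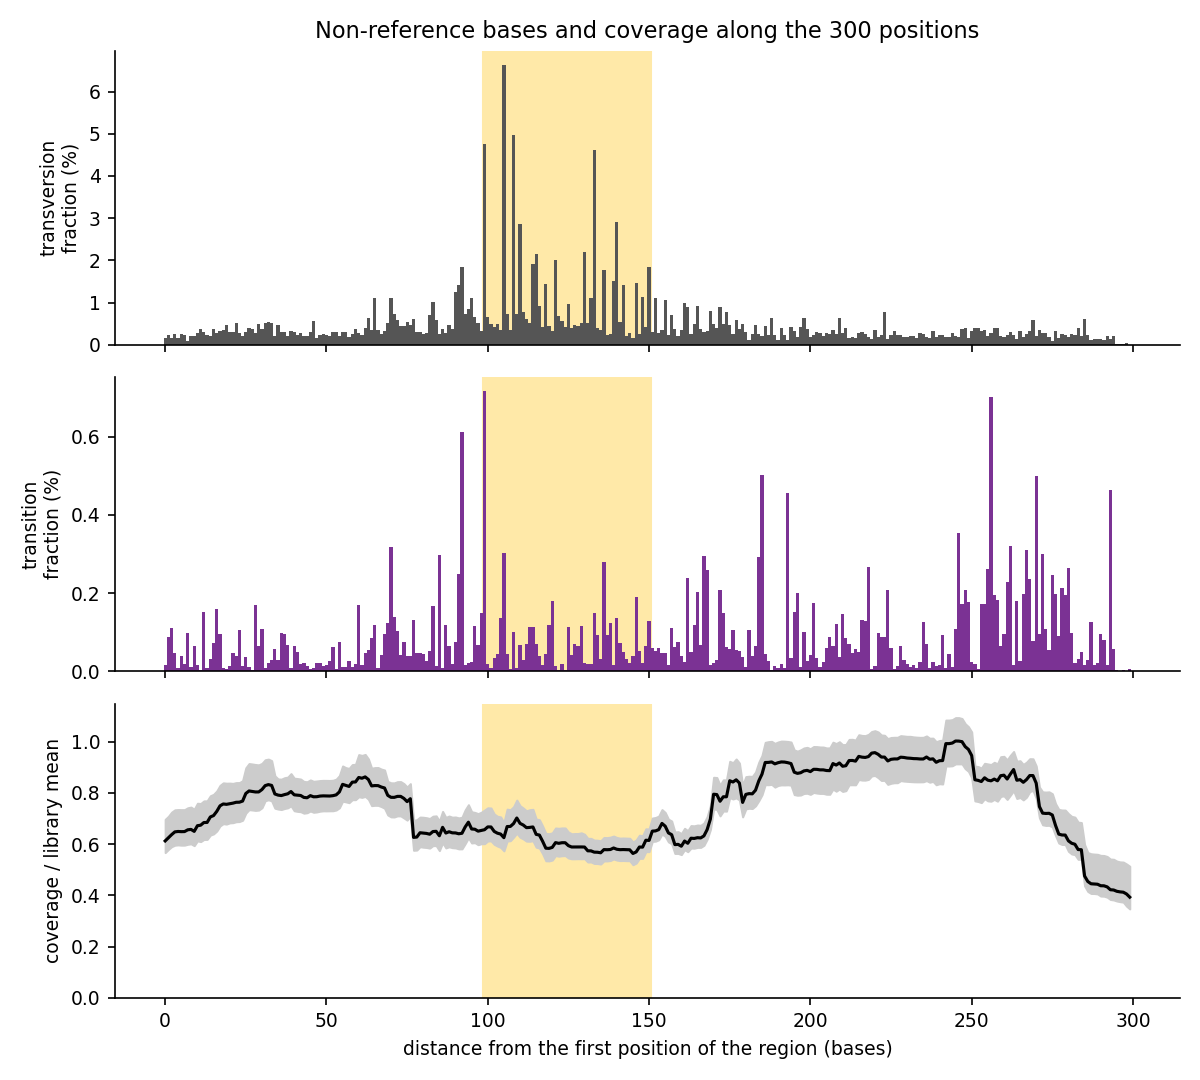
Summed transversion fraction (top, %) and transition fraction (middle, %) at each position, as means of the 15 libraries without Thy replicate 2, and coverage over the library mean (bottom; line, mean of 16 libraries, grey, their range), against the distance from the first position of the region in bases. The shaded stretch holds the tallest transversion bars, transition bars crowd at distances of about 250 to 280, and coverage dips at the stretch and falls to 0.393 of the library mean at the last position.

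Coverage of the region, over all its positions with the stretch included, was lower than in the rest in 16 of 16 libraries. It was 0.745 ± 0.0299 of the library mean (SD, n = 16), a log2 difference to the rest of -0.43 (adjusted exact permutation p = 0.00879, n = 8 subset means), while the other part of the control region stood at 1.08 ± 0.115. Along the region, windows of 25 positions ran from 0.951 at 16225-16249 down to 0.581 at 16125-16149, within the stretch, and 0.509 at 16275-16299. Relative coverage was 0.742 ± 0.0359 before the stretch and 0.793 ± 0.0332 after it. The last position was read at 0.393 ± 0.0462 of the mean. The reference is linear and ends there in the middle of a circular molecule, and whether this moved the coverage or the fractions was not tested. At the last 5 positions the transversion fractions were between 0.00607% and 0.0491% in the mean of 15 libraries, far below the region's 0.356%.

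Between subsets, none of the 4 regional measures differed beyond the spread of the 16 libraries. The share of the variance between subsets was 50.5% for the load (adjusted exact permutation p = 0.277, one-sided, over 4 measures), 44.7% for the number of counted alleles (0.548), 64.8% for the transition load (0.277) and 61% for the relative coverage (0.277). Mean transition load was highest in 6C3 (0.115% ± 0.0164, SD, n = 2) and CD29 (0.104% ± 0.0157), followed by Thy (0.0910%), CD24_CD29 (0.0896%), Thy_6C3 (0.0893%), CD45 (0.0779%), CD24 (0.0769%) and CD105 (0.0731% ± 0.00246). Each neighbouring pair in this order differed by less than the larger of its SDs. 6C3 and CD29 also had the highest transition loads in the rest of the genome, 0.194% and 0.170%.

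With Thy cells left out, more of the variance of the region's load lay between subsets. Without both Thy libraries, a choice made after the values were seen, 88.0% of it lay between the other 7 subsets (adjusted exact permutation p = 0.0239). The test over all 16 libraries did not pass (adjusted exact permutation p = 0.277). The 2 Thy libraries were the furthest apart of any subset, at 0.465% and 1.18%. Leaving them out removed the largest spread within a subset, so no difference between subsets is concluded. Leaving out just Thy replicate 2 gave 88.6%. Leaving out just Thy replicate 1 gave 99.8%, with Thy replicate 2 as the only Thy library left. A lone library adds no spread within its subset, so the other 7 subsets supplied all of it, and these 2 shares are given as values only. CD24 was lowest at 0.399% ± 0.00502 (SD, n = 2), followed by CD45 (0.425%), CD105 (0.427%), CD29 (0.450% ± 0.00359), Thy_6C3 (0.458%) and 6C3 (0.458%), with CD24_CD29 highest at 0.483% ± 0.0110. The rest of the genome had the same ends, 0.392% in CD24 and 0.470% in CD24_CD29, as had the other part of the control region, with 0.277% and 0.354%. For the number of counted alleles the share was 99.6% without Thy replicate 1, again with a lone Thy library and given as a value only. Transition load alone without the Thy subset did not pass (73.9%, adjusted exact permutation p = 0.277). That adjustment kept the other measures as tested over all 16 libraries. Transversions made up most of the load, at 0.311% to 0.397% of bases in 15 libraries.

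No single allele of the region was called between subsets. Over the 3487 alleles of the genome that were counted in at least 1 library, of which 70 were in the region and 40 in the stretch, edgeR called 0% in the test over all subsets and 0% in each of the 8 contrasts of a subset against the mean of the other 7. Of the 70, only 22 were also counted in a library other than Thy replicate 2, as were 1130 of the 3487. The others entered the tested set through Thy replicate 2 alone. Numbers and differences in the Thy contrast therefore follow in part from that filter. Unadjusted p was under 0.05 in the Thy contrast for 35 of the 70 alleles (50%, against 48.8% of all 3487). It was under 0.05 for 1 allele in the contrast of CD24_CD29 (6.31% of all), 1 in that of CD29 (0.889% of all) and none in the other contrasts. The lowest adjusted p was 0.0985, in the Thy contrast. The median log2 difference for Thy was 1.30 over the 70 alleles and 1.33 over all 3487. DESeq2 called 39 of the 70 for Thy (55.7%), against 58.1% of all 3487, and none of them for other subsets. Without Thy replicate 1, where Thy replicate 2 is the one Thy library and is assumed to vary like the other subsets, edgeR called 47 of the 70 over all subsets (67.1%, against 65.9% of all), 53 in the Thy contrast (75.7%, against 68.7% of all) and 2 in that of CD24 (4.22% of all). Without Thy replicate 2 it called 0. A16036G, the member with the smallest p in the CD24_CD29 contrast, had a log2 difference of 4.23 that came from CD24_CD29 replicate 1 (adjusted p = 0.530 by edgeR).

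Between the libraries of replicate 1 and those of replicate 2, edgeR called 2 of the 70 alleles. Both were higher in replicate 1, where 2.67% of all tested alleles were called in this direction, and none was called higher in replicate 2, against 3.07% of all. A share of 2 in 70 is near that background. Same-numbered libraries of different subsets shared deviations (r 0.343 to 0.863), so the libraries of a number may not be independent. Both alleles passed the 1% filter through replicate 1 alone, T16246C in 1 library and T16269A in 4. With no filter on the fraction both were called again (edgeR, Benjamini-Hochberg adjusted p = 2.69e-05 and 1.96e-05). Both lie past the stretch, and their surroundings are printed with the changed base in capitals.
T16246C: tacaaaatcaTgttccgtgaa
T16269A: aaaactctaaTcatactctat

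T16246C is a transition that every library of replicate 1 held and that was nearly absent from replicate 2. Its fraction in replicate 1 was 0.227% in CD45, 0.292% in CD24, 0.341% in Thy_6C3, 0.393% in CD29, 0.584% in CD105, 0.697% in Thy, 0.946% in 6C3 and 1.71% in CD24_CD29 (95% exact interval 1.5% to 1.95%). In replicate 2 it ran from 0 of 6519 reads in CD24_CD29 through a median of 0.0206% to 0.0473% in Thy, and that count of 0 allows a fraction of up to 0.0460%. The ranges do not overlap, and all 8 subsets shared the direction. The means were 0.649% ± 0.492 and 0.0215% ± 0.0159 (SD, n = 8 each), and the log2 difference of replicate 2 over replicate 1 was -4.58 (edgeR quasi-likelihood test, Benjamini-Hochberg adjusted p = 5.74e-07). Within replicate 1, the exact interval of the lowest library, 0.173% to 0.292%, lies far below that of the highest.

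T16269A is a transversion, and it was present in both replicates at different levels. In replicate 1 it was 0.491% in CD24, 0.719% in Thy, 0.831% in CD105, 0.945% in Thy_6C3, 1.01% in CD29, 1.15% in 6C3, 1.18% in CD24_CD29 and 1.21% in CD45. In replicate 2 it was between 0.103% (CD105) and 0.183% (Thy_6C3) in 7 libraries and 0.338% in Thy. The ranges do not overlap, and Thy was the highest library of replicate 2 and among the lowest of replicate 1. The means were 0.942% ± 0.251 and 0.152% ± 0.0793 (SD, n = 8 each), with a log2 difference of -2.70 (edgeR quasi-likelihood test, Benjamini-Hochberg adjusted p = 1.41e-06).

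T16218C, named after its values were seen, separated the replicates the other way. It stayed under 1% in every library and so was not among the 3487 alleles tested.
T16218C: acttatatttTagtacttgta
In replicate 1 it ran from 0.0104% in Thy_6C3 (2 of 19152 reads) through a median of 0.0940% to 0.219% in 6C3. In replicate 2 it ran from 0.227% in CD24_CD29 through 0.404% to 0.706% in CD24. The highest library of replicate 1 and the lowest of replicate 2 were 0.219% and 0.227%, with overlapping exact intervals (0.167% to 0.281% and 0.124% to 0.380%). When alleles at 0.5% or more were tested, it was called with a log2 difference of 2.43 (edgeR, Benjamini-Hochberg adjusted p = 0.00631, where 0.644% of 18006 alleles were called in this direction). T16218C passed that filter through replicate 2 alone and was named because its replicates separate, so this call is no independent support. The other 2 alleles were called again at 0.5%, among 0.566% of alleles higher in replicate 1. Over all 48897 alleles, 0.147% had all libraries of replicate 1 above all of replicate 2 and 0.151% the reverse. The region outside the stretch had 2 and 1 of its 744, and the stretch none. Among tested alleles, 2 of 70 had replicate 1 wholly above (1.78% of all) and none had replicate 2 wholly above (1.81% of all).

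**Figure D4:**
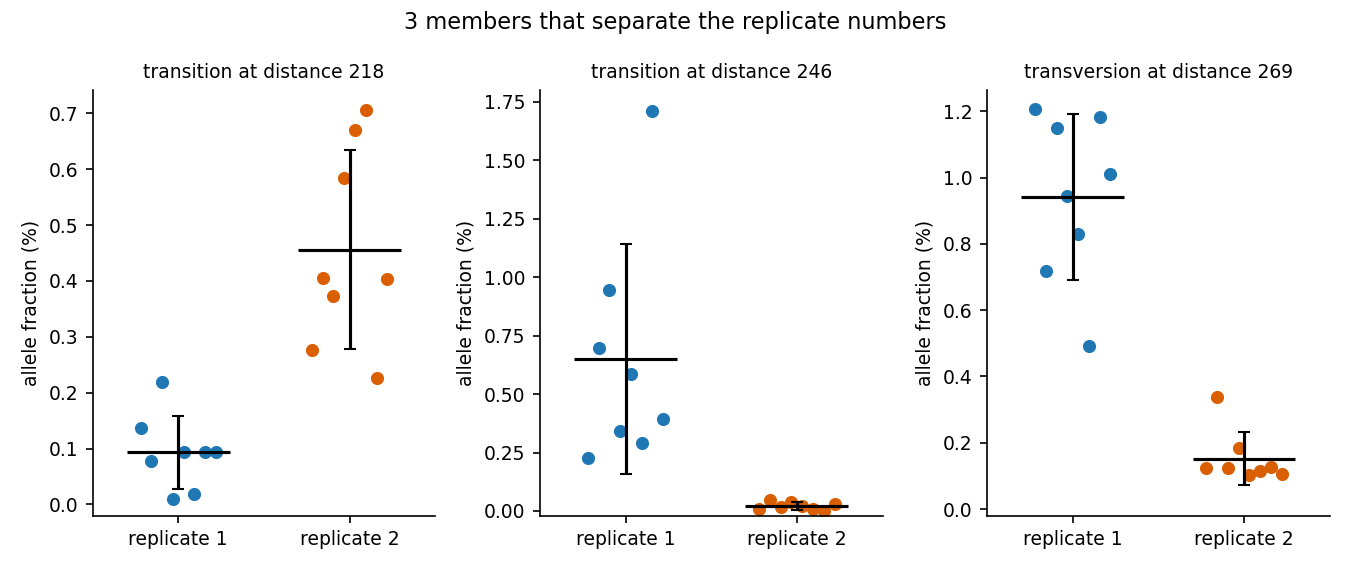
Allele fraction (%, y axis) in the 8 libraries of replicate 1 (blue) and of replicate 2 (orange) for the transition at a distance of 218 bases from the first position of the region, the transition at 246 and the transversion at 269, with lines for the mean and bars for the SD. The replicates do not overlap in any panel, and the first panel runs the other way from the other two.

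The regional measures did not separate the replicates. Transition load was 0.0866% ± 0.0185 in replicate 1 and 0.0927% ± 0.0167 in replicate 2 (SD, n = 8 each), relative coverage 0.741 ± 0.0197 and 0.749 ± 0.0386, load 0.449% ± 0.0262 and 0.532% ± 0.265, and counted alleles 4.63 ± 2.07 and 10.9 ± 19.2. Thy replicate 2 raised the last 2 means of replicate 2, and the medians of the load were 0.447% and 0.449%. The adjusted exact permutation p was 0.875 for each of the 4 (swaps within 8 subsets, two-sided).

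The stretch from 16099 to 16150 held transversions whose replicate means lay close together, and as these levels chose it they are given with no test. In the 15 libraries without Thy replicate 2, 21 of its transversions were counted at least once, at 19 positions, and 17 were counted in all 16 libraries, of 24 alleles in the whole genome that were (0.0491%). The highest was A16099C, at 4.71% ± 0.295 in replicate 1 and 4.49% ± 1.19 in replicate 2 (SD, n = 8 each), followed by T16133A at 4.48% and 4.21%, T16105G at 3.61% and 3.54%, T16108A at 3.26% and 3.13%, T16105A at 3.09% and 3.12%, and T16140A at 2.76% and 2.80%. A16099C ranged from 2.74% to 6.86%, with the top in Thy replicate 2. Over the 21 transversions, the replicate means differed 1.03-fold in the median and 1.15-fold at most, with Thy replicate 2 left out. No transition of the stretch was counted.

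**Figure D5:**
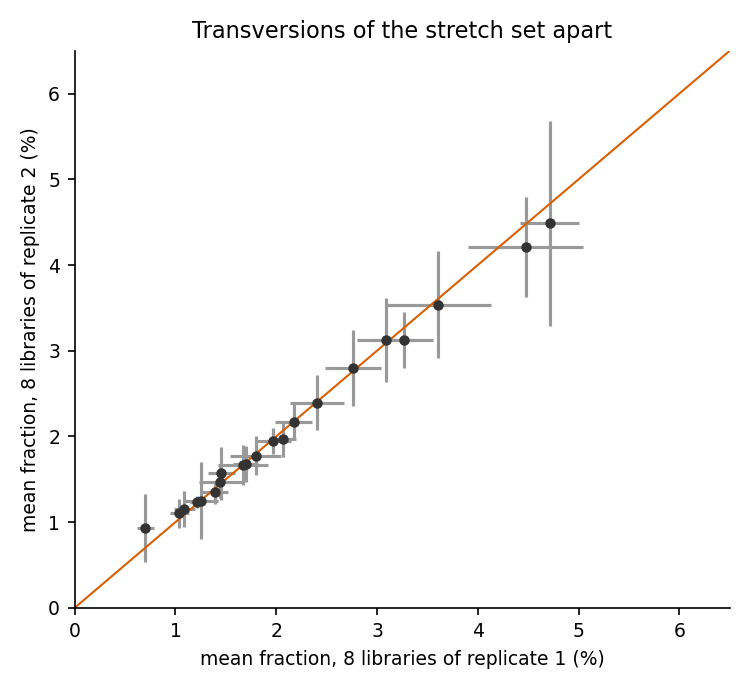
Mean fraction of the 21 transversions of the stretch in the 8 libraries of replicate 1 (x axis, %) and of replicate 2 (y axis, %), with bars for the SD and a line of equal values. The points lie along the line, from 0.699% to 4.71% in replicate 1.

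The bases of these transversions were not spread evenly. The new base was A in 12 of the 21, and all 4 G positions of the stretch had a counted G>T change. A counted transversion stood at 7 of the 9 T positions, 5 of 18 C positions and 3 of 21 A positions. In 12 of the 21 the new base was the same as the base just before it, and in 5 the same as the base just after it. Over all 104 transversions of the stretch the numbers were 18 and 18. The transversion load was 1.22% ± 0.0708 (SD, n = 15) in the stretch and 0.356% ± 0.0242 in the region outside it. The median window of 52 positions in the genome had 0.291%, and the highest window that did not touch the stretch had 0.518%, at 16046-16097, just before it. Relative coverage in the stretch was 0.612 ± 0.0304.

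The levels did not end at the borders of the stretch. Just inside it, T16150A was at 1.67% in both replicates. Just outside, T16152A was at 0.914% and 0.988% and T16155A at 0.913% and 0.906%. On the other side, in the first copy of AAACCCC, A16090C was at 1.08% and 1.08%, A16091C at 1.03% and 1.22%, A16092T at 1.37% and 1.37%, and C16095G at 0.788% and 0.686%. A16092T was the one allele outside the stretch that was counted in all 8 libraries of replicate 1 (0.108% of all alleles were), and it was counted in 6 libraries of replicate 2. No allele outside the stretch was counted in all 8 libraries of replicate 2 (0.121% of all alleles were). Farther out, A16065C had means of 0.899% and 0.980%, A16070C 0.983% and 1.23%, C16161A 0.961% and 1.02%, and C16165A 0.838% and 0.923%. Except for T16269A, the alleles with the 8 highest means in either replicate all lay between 16065 and 16165. None of these differed between the replicates except T16269A by the edgeR test. The library behind many of the highest values was Thy replicate 2, with 3.20% of A16070C, 3.16% of A16091C, 2.32% of A16090C and 2.33% of A16065C.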

How the data were processed

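The deposited tables give, for each mitochondrial position and library, the coverage and the counts of the 3 other bases, as whole numbers that the authors did not normalize. The tools were BWA 0.7.17, cutadapt 2.10 and bcl2fastq 2.20 and the builds mm10 and GRCm38, per the submitters' processing notes. How duplicates, base quality and nuclear copies of the mitochondrial sequence were treated is not given in the sources used here, and each can change a low fraction.

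Groups and replicate numbers came from the sample titles. Fractions, loads and counted alleles were computed as defined in the text. Subsets were compared by the share of variance between them over all 2027025 ways to pair the libraries, replicate numbers by all 256 swaps within subsets, and the region with the rest by sign flips over 8 subset means, with Benjamini-Hochberg adjustment within each family. Alleles were tested with edgeR 4.0.16 (quasi-likelihood, R 4.3.3) with 2 columns per library, for non-reference and for reference counts, over all 3487 alleles at 1% or more with at least 5 counts in a library, with Benjamini-Hochberg adjustment and a threshold of 0.05. DESeq2 1.42.0 was an alternative. The scripts were tested on simulated data. The rest ran in Python 3.11.15 with pandas 2.3.3, numpy 2.4.6, matplotlib 3.10.9 and scipy 1.17.1.

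Alleles named outside the stretch were the 8 with the highest mean in each replicate, those counted in all 8 libraries of a number, those called between numbers, the member with the smallest p in each subset contrast and the highest allele counted in 1 library of a number only. Inside the stretch the 6 highest means were named. All counted transitions, T16218C and the alleles at the borders of the stretch were added after their values were seen. The region, the stretch, the tests and the lists were chosen with earlier results of these data known. Other thresholds, other definitions of the rest, a replicate block and leaving out libraries were tried as alternatives.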

Additional observations from a re-analysis of the deposited data

Results flagged for a closer look

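In each replicate number, a value was singled out when the gap from the highest or lowest of the 8 libraries to its neighbour was large against the whole range. Of 74 groups tested, 18 were singled out, where chance singles out about 1 in 20, and in 11 of the 18 the library was Thy replicate 2. Some of the alleles among the groups were named because 1 library held them, so the chance rate does not apply to them and their being singled out is a description. No explanation was tested.

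Thy replicate 2 lay above the other 7 libraries of replicate 2 in the load of the region, with 1.18% against 0.395% to 0.475%. It also stood out in the number of counted alleles, with 58 against 2 to 8, and in the load of the stretch, with 2.16% against 1.19% to 1.37%. The same library was highest for 7 A>C alleles. It had 2.95% of A16022C, 1.0% of A16052C, 2.33% of A16065C, 3.20% of A16070C, 1.24% of A16083C, 2.32% of A16090C and 3.16% of A16091C, where the other 7 libraries had at most 1.26% of any of them. It was also the highest library of replicate 2 for T16269A, at 0.338% against 0.103% to 0.183%.

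6C3 replicate 1 had the highest transition load, 0.127% against 0.0694% to 0.0932% in the other libraries of replicate 1, and the highest fraction of A16256G, 1.18% against 0.484% to 0.781%. In replicate 2 the transition load of 6C3 was 0.104%, within the range of the others.

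Transitions that 1 library held apart from the rest of its number were A16036G in CD24_CD29 replicate 1 (1.15%, others at most 0.0822%), G16012A in Thy_6C3 replicate 2 (1.51%, others at most 0.265%), and A16201G (1.79%, at most 0.185%), T16235C (1.24%, at most 0.144%) and G16247A (1.14%, at most 0.297%) in CD24_CD29 replicate 2.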

How the results depend on the processing

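The difference in load between region and rest depended most on the settings. It was +0.157 with the stretch included, +0.136 against the other part of the control region and +0.0288 without the last 50 positions. It was -0.0562 for transitions alone, and, chosen after seeing the data, -0.0108 for transitions at 1% or more, -0.0470 without 20 positions on either side of the stretch and +0.0353 for transitions against the other part of the control region. For alleles per kilobase it was -0.533 at a threshold of 2% and, chosen after seeing the data, +1.10 without those positions and -3.25 for transitions alone. Also added after seeing the data, C>G with G>C became -0.550 and A>T with T>A -0.878 without those positions, and C>T with G>A became +2.07 and T>C with A>G +3.75 per 10000 against the other part of the control region. The share of variance of the load between subsets was 88.0% without the Thy subset.

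Leaving out 1 library at a time, that share ran from 49.6% to 99.8%, and that for the number of counted alleles from 44.0% to 99.6%. Calls between subsets then ran from 0 to 63 over all subsets and from 0 to 78 in the contrasts, stretch included, with the highest values without Thy replicate 1, and DESeq2 made 52 in the contrasts. The causes were not tested. Calls higher in replicate 1 were 0 at a threshold of 2%, where neither allele was tested, and 1 was higher in replicate 2 at 0.5% or with no filter on the fraction. T16246C and T16269A were called in every fit that left out 1 library, with log2 differences of -4.76 to -4.35 and -2.90 to -2.64.

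The replicate block gave shares between subsets of 53.3% for the load, 47.4% for counted alleles, 67.0% for the transition load and 62.1% for the relative coverage, and 0 alleles called. Same-numbered libraries of different subsets shared deviations (r 0.343 to 0.863 over 28 pairs of subsets), with only 2 numbers to judge from. Of all alternatives, 444 were classed as the same as the main result, and 24 were not. For tests, the same meant the same side of the threshold with no reversal of a result that passed. For numbers of calls it meant a value close to the main one. Shares of variance between subsets have no direction.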
